A study of Mus musculus with 6 samples.

Results

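The nuclear-encoded genes of mitochondrial oxidative phosphorylation were followed in brain endothelial cells of mouse embryos, with and without Axin1 overexpression. Entries were taken by symbol (names beginning with Nduf, Uqcr, Cox4 to Cox8 or Atp5, and Sdha to Sdhd), which matched 90 of 22958 gene entries. Of these, 83 had 10 or more reads in at least 3 of the 6 libraries and were kept, and all 83 also passed the filter of the test, which left 12661 genes in all. By their known roles, 74 of the 83 encode subunits: 35 of complex I, 4 of complex II, 8 of complex III, 13 of complex IV and 14 of complex V. The symbol rule also caught 9 genes that encode no subunit of these complexes, and they are described apart. They are the complex I assembly factors Ndufaf1 to Ndufaf4, the supercomplex factor Cox7a2l, the Ndufa4 paralog Ndufa4l2, and Cox4nb, Atp5s and Atp5sl. The 7 entries with too few reads were Atp5g2, Ndufs5, Cox6a2, Cox7a1, Cox7b2, Cox8b and Cox8c.

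All 6 libraries came from cells sorted for CD31 (PECAM1), a surface protein of endothelial cells, from C57BL/6 x 129/Sv embryos at E11.5 after tamoxifen was given to the mother at E9.5 (E for embryonic day). The 3 control libraries had wildtype Axin1 and the genotype Cdhrs5CreERT2:R26Axin1IL-/-, and the 3 Axin1 libraries had the genotype Cdhrs5CreERT2:R26Axin1IL+/-, so both groups carried the tamoxifen-activated Cre and received the drug. Axin1 is a scaffold protein of the beta-catenin destruction complex and so an inhibitor of canonical Wnt signalling. The labels do not say in which cells the Cre line is active. They name the libraries as biological replicates but give no litters, pools or sex, so the p-values measure the spread between these libraries, which may be partly technical. Polyadenylated RNA was amplified with a low-input cDNA kit, and 10772492 to 14234409 reads per library were assigned to genes. Axin1 itself was counted at 25, 17.5 and 20.7 CPM in the controls and 79.7, 62.1 and 66.1 CPM in the Axin1 libraries, where the 3 values of a group stand in the order of libraries 1, 2 and 3, as everywhere below. CPM are reads scaled to the size of the library, with TMM normalisation for library composition. The groups did not overlap for Axin1, and its log2 fold change was 1.72 (SE 0.17, edgeR adjusted p 0.0103). The endothelial markers Pecam1, Kdr and Tek were present in every library, and the 12 endothelial markers summed to 8528 to 9774 CPM. Controls 1 and 2 stood apart for 448 of the 12661 genes (3.54%), which were at least 1.5-fold lower in both of them than in every other library. Because 6 oxidative phosphorylation genes are among those 448, the log2 fold changes of those 6 are also given against control 3 alone. Sums are also given without Atp5b and Atp5d for complex V, and without all 6 for the kept genes. The titles of library 1 of both groups share the number 1813 and those of library 2 the number 1814, and the labels do not say what these numbers mark.

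Oxidative phosphorylation moves electrons from NADH and succinate through complexes I, II, III and IV of the inner mitochondrial membrane to oxygen, and the protons pumped on the way drive ATP synthesis by complex V. Complex I oxidises NADH, complex II is the succinate dehydrogenase of the citric acid cycle, complex III passes electrons from ubiquinol to cytochrome c, and complex IV (cytochrome c oxidase) reduces oxygen. Most subunits are encoded in the nucleus and a few central ones in mitochondrial DNA. Endothelial cells are known to draw much of their ATP from glycolysis, and use the respiratory chain also for redox balance and biosynthesis. NRF1, GABP (an ETS-family factor) and YY1 are transcription factors long known to bind promoters of respiratory genes. The promoters of the genes are shown first, because the members' levels are compared as a group further on.

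Promoter windows of 300 bases (250 before and 50 after the transcription start) were available for 69 of the 83 genes, from RefSeq on build GRCm38.p6. Each was searched on both strands for 4 exact motifs. The NRF1 palindrome (GCGC, then AT, then GCGC) was found for 5 of the 69 genes (7.25%), against 1.07% of all 27025 genes with a window. The ETS motif CCGGAAG was found for 17 of the 69 genes (24.6%, against 9.93% of all), and the YY1 motif AAGATGGCG for 8 (11.6%, against 1.64%). The TATA motif TATAAA was found for 5 of the 69 genes (7.25%, against 15.7%). A gene was counted if any of its windows held the motif. Unlike the 69, the 27025 genes were not limited to those with reads in these libraries. A match describes these letters only, and does not show that a factor is bound. For each complex, the window of the motif-bearing subunit with the smallest unadjusted p is printed (a choice made after the values were seen), together with Atp5k and Cox6a1, whose windows both hold the NRF1 and the ETS motif. Capitals mark the NRF1, ETS and YY1 matches, and CTTCCGG is the ETS motif read on the other strand. All windows run 5′ to 3′ in the direction of the gene.
Ndufs7 (chr10:80249199-80249498, plus strand, YY1 motif): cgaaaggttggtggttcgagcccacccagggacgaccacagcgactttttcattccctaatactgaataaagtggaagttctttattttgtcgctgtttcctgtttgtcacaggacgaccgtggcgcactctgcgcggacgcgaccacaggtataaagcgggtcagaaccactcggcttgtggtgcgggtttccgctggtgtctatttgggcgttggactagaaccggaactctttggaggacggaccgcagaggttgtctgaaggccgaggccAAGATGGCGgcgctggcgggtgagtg
Sdhd (chr9:50603800-50604099, minus strand, ETS motif): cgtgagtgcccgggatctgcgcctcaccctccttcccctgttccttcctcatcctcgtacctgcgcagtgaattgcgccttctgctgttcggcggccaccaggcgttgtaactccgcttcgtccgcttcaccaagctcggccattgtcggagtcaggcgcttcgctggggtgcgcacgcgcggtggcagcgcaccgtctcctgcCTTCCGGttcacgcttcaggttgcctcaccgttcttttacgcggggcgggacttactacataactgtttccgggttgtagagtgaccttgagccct
Uqcrh (chr4:116075021-116075320, minus strand, ETS motif): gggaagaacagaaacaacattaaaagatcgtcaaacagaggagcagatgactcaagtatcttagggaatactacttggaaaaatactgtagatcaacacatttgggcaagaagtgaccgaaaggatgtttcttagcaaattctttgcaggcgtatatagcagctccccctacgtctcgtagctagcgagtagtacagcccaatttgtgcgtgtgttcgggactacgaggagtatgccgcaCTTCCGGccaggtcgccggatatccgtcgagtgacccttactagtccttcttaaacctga
Cox6b1 (chr7:30626065-30626364, minus strand, ETS motif): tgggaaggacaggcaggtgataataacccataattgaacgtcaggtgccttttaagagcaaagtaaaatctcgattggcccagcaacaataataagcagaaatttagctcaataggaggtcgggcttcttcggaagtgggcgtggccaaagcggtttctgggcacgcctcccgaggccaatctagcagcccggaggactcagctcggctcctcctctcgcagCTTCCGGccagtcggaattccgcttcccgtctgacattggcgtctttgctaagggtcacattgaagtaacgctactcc
Atp5h (chr11:115419870-115420169, minus strand, ETS motif): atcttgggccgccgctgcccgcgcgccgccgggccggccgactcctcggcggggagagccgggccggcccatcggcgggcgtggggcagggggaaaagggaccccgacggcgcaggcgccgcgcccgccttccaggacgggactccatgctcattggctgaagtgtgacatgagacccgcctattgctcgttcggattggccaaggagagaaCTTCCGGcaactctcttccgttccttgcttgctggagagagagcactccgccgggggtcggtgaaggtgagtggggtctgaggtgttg
Atp5k (chr5:108434350-108434649, minus strand, NRF1 and ETS motifs): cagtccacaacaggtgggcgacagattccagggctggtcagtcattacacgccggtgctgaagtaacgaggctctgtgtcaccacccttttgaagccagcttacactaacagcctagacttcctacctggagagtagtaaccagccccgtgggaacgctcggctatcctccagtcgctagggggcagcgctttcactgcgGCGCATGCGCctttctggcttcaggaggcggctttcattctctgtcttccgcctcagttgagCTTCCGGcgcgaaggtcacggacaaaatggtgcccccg
Cox6a1 (chr5:115348909-115349208, minus strand, NRF1 and ETS motifs): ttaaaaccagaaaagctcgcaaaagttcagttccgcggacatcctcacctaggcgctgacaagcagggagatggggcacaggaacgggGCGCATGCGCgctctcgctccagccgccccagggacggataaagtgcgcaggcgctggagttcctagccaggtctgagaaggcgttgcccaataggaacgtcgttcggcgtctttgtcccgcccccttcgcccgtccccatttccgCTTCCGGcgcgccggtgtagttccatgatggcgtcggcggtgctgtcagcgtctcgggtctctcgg
In Ndufs7 the YY1 letters lie after the transcription start. In Atp5k the NRF1 palindrome lies upstream of the ETS letters. Over all 6 libraries the same pair of motifs went with different values. Atp5k had a log2 fold change of -0.41 with groups that did not overlap, and Cox6a1 one of 0.12 with overlapping groups. Cox6a1 was lowest in controls 1 and 2. Against control 3 alone the log2 fold changes were -0.35 for Atp5k and -0.33 for Cox6a1.

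The comparison asked how far Axin1 overexpression went with a different level of these genes. The levels were mostly lower in the Axin1 libraries, by a small amount: the log2 fold change of Axin1 against control was below 0 for 67 of the 83 genes, against 47.5% of all tested genes. The median was -0.25, a level 1.19-fold higher in the controls, where the median of all tested genes was 0.02. For 41 of the 83 genes every Axin1 library was below every control (against 12.5% of all genes), and for 3 genes every Axin1 library was above every control (against 11.3%). Most of these transcripts are short, and short transcripts of other genes were lower too: of the 31 oxidative phosphorylation genes of 500 to 749 bases the groups of 17 did not overlap downward, against 26.0% of the 288 other genes of that length. With an offset for transcript length in the fit, described further on, the median of the 83 genes was -0.12. No single gene passed the test: edgeR's quasi-likelihood test called 0 of the 83 at an adjusted p of 0.05, where it called 107 of 12661 genes (0.845%), 0.49% lower and 0.355% higher. At an unadjusted p under 0.05 it had 35 of the 83 genes lower, against 8.14% of all genes, and 4 higher, against 9.06%. Without control 1 the numbers were 20 lower (against 5.9% of all genes) and 1 higher (against 6.15%), and without Axin1 library 3 they were 21 lower (against 6.27%) and 4 higher (against 6.75%). DESeq2, run as an alternative, called 16 of the 83 lower (against 2.52% of all genes) and Ndufab1 higher (against 3.17%). DESeq2 gave no adjusted p for Cox4i2, Atp5l and Ndufa4l2. The common biological coefficient of variation of the fit was 25.3%. In bulk samples such as these, fewer cells of a type and less RNA per cell cannot be told apart.

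The 16 genes that DESeq2 called lower came from every complex. They were Ndufa2, Ndufa3, Ndufb10, Ndufs6, Ndufs7 and Ndufs8 of complex I, Sdhd of complex II, Uqcr10 and Uqcrq of complex III, Cox4i1, Cox6b1 and Cox7a2 of complex IV, Atp5h, Atp5j and Atp5j2 of complex V, and the supercomplex factor Cox7a2l. Their log2 fold changes by edgeR ranged from -0.57 (Ndufs6) to -0.37 (Cox4i1), and the groups of none of the 16 overlapped. The libraries did not contribute evenly. Control 1 was the highest library for 45 of the 83 genes, against 18.4% of all tested genes, and Axin1 library 3 was the lowest for 43, against 19.7%. Leaving out Axin1 library 3 gave a median of -0.20, and leaving out control 1 gave -0.22.

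**Figure D1:**
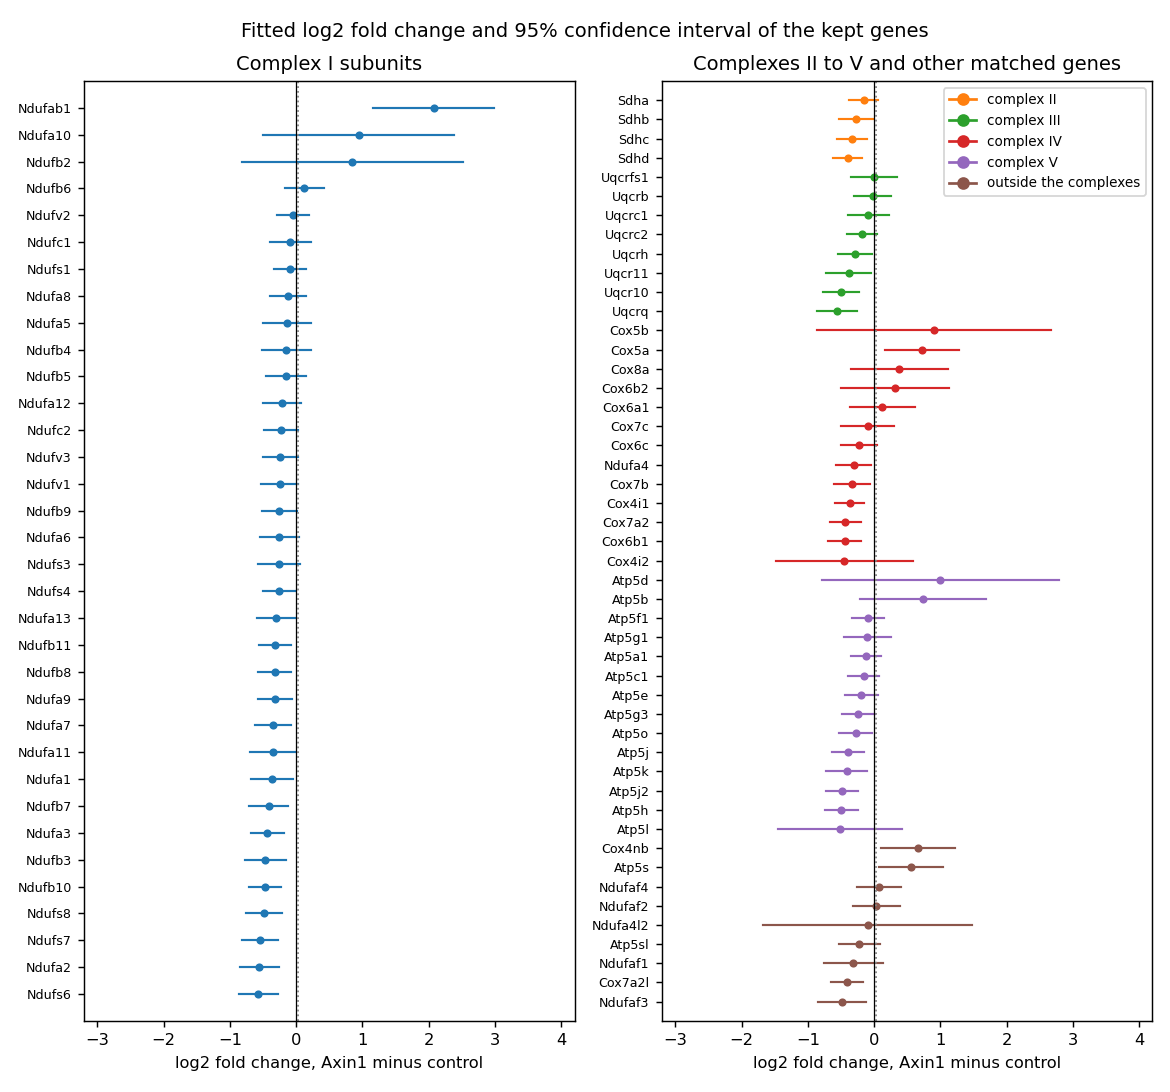
Fitted log2 fold change (Axin1 minus control, x axis) of the kept genes reported here, with bars for the 95% confidence interval, complex I on the left and the other genes on the right. Most points sit between 0 and -0.57, and the wide intervals to the right of 0 belong to genes such as Ndufb2, Cox5b and Atp5d that were low in controls 1 and 2.

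Summed over their subunits, complexes I to IV were each lower in every Axin1 library than in every control, and complex V was not unless Atp5b and Atp5d were left out. Complex I summed to 5323, 4831 and 5114 CPM in the controls and 4321, 4694 and 4055 CPM in the Axin1 libraries. Its group means were 5089 ± 247 CPM against 4357 ± 321 CPM (SD, n = 3 each), a ratio of 0.856. Complex II summed to 1639, 1485 and 1528 CPM in the controls and 1329, 1289 and 1259 CPM in the Axin1 libraries. The means of complex II were 1551 ± 79.8 CPM against 1292 ± 34.8 CPM (SD, n = 3 each), a ratio of 0.833, and control 1 was the highest library for both complexes. Complex III had means of 2134 ± 111 CPM against 1824 ± 161 CPM (SD, n = 3 each), a ratio of 0.855. Complex IV had means of 2717 ± 105 CPM against 2319 ± 203 CPM (SD, n = 3 each), a ratio of 0.853. In both, Axin1 library 2 came closest to the controls and Axin1 library 3 was the lowest. Complex V summed to 5077, 4750.0 and 5338 CPM in the controls and 5086, 4998 and 4726 CPM in the Axin1 libraries. Its means were 5055 ± 295 CPM against 4937 ± 187 CPM (SD, n = 3 each), a ratio of 0.977, and the groups overlapped. A sum is led by its most abundant transcripts, and for complex V these include Atp5b, which was low in controls 1 and 2. Without Atp5b and Atp5d, left out after their values were seen, complex V summed to 4642, 4335 and 4196 CPM in the controls and 3859, 3922 and 3623 CPM in the Axin1 libraries. Every Axin1 library was then below every control, with a ratio of means of 0.866. The mean of the Axin1 libraries over control 3 alone was 0.925 for the whole of complex V, and 0.852, 0.846, 0.856 and 0.828 for complexes I to IV. Sums over genes picked as a family carry no p-value here.

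**Figure D2:**
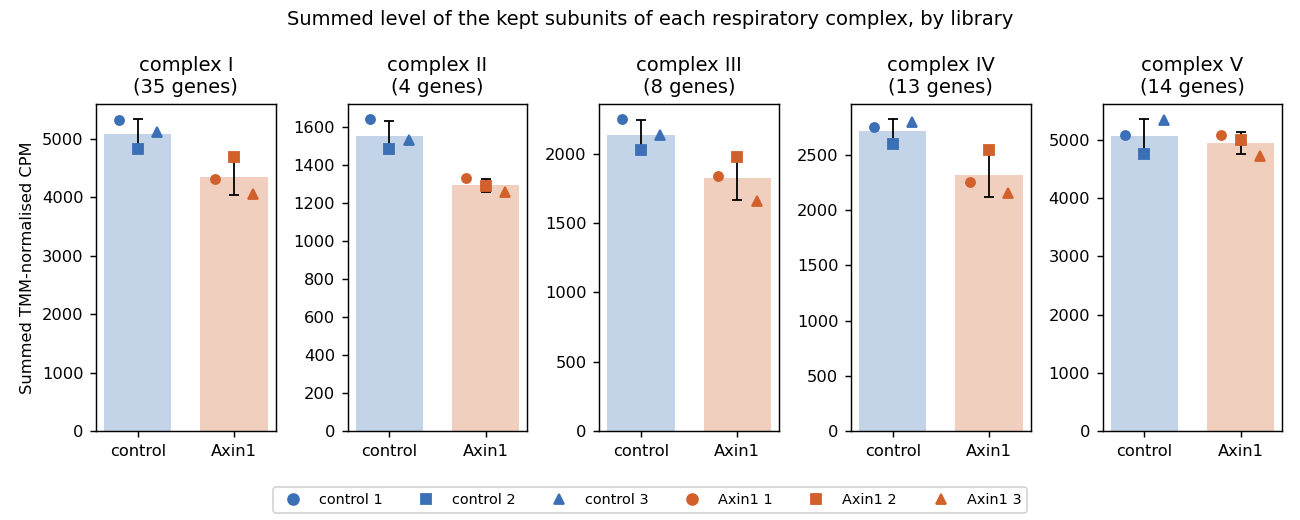
Summed TMM-normalised CPM of the kept subunits of each complex (y axis, from 0), with a point for each library, bars for group means and error bars for the SD (n = 3). The Axin1 points lie below all control points for complexes I to IV and overlap with them for complex V.

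In complex I, 30 of the 35 subunits had a log2 fold change below 0, with a median of -0.26, and the groups of 20 did not overlap downward (against 12.5% of all genes). Its nuclear-encoded core subunits hold the flavin and the iron-sulfur clusters and bind ubiquinone. The 7 nuclear core subunits had a median of -0.25. Together these 7 genes summed to 1228, 1113 and 1262 CPM in the controls and 1109.8, 1114 and 1002 CPM in the Axin1 libraries, with overlapping groups. Ndufs7, an iron-sulfur subunit beside the ubiquinone site, was counted at 172, 153 and 172 CPM in the controls and 108, 129 and 105 CPM in the Axin1 libraries. All Axin1 libraries were below all controls, and the log2 fold change was -0.54 (SE 0.12, edgeR adjusted p 0.082). Ndufs8, which carries a further pair of iron-sulfur clusters, was counted at 255, 244 and 239 CPM in the controls and 163, 204 and 161 CPM in the Axin1 libraries. Its groups did not overlap either, and its log2 fold change was -0.48 (SE 0.12, edgeR adjusted p 0.106). The NADH-binding flavoprotein Ndufv1 (-0.25), its partner Ndufv2 (-0.05) and the large iron-sulfur protein Ndufs1 (-0.10) had smaller log2 fold changes and overlapping groups. Ndufs3 had a log2 fold change of -0.26, also with overlapping groups.

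The 28 kept accessory subunits, which surround and stabilise the core, had a median of -0.26, and 24 were below 0. Their sum was 4095, 3717 and 3852 CPM in the controls and 3211, 3579.6 and 3053 CPM in the Axin1 libraries, and these groups did not overlap. Ndufs6, a zinc-binding subunit added late in assembly, had the largest negative log2 fold change of all kept genes. It was counted at 113, 100.4 and 113 CPM in the controls and 69.4, 84.7 and 66 CPM in the Axin1 libraries. The Axin1 libraries were all below the controls, with a log2 fold change of -0.57 (SE 0.13, edgeR adjusted p 0.0886) and a DESeq2 adjusted p of 0.0127. Ndufa2, a small accessory subunit of the matrix arm, was counted at 133, 127 and 137 CPM in the controls and 84, 106 and 79.9 CPM in the Axin1 libraries and had a log2 fold change of -0.56 (SE 0.13, edgeR adjusted p 0.0943). Ndufb10, of the membrane arm, was counted at 149, 149 and 144 CPM in the controls and 101, 115 and 101 CPM in the Axin1 libraries. The groups of Ndufa2 and Ndufb10 did not overlap, and the log2 fold change of Ndufb10 was -0.48 (SE 0.11, edgeR adjusted p 0.082). Ndufb8, another membrane arm subunit and the most abundant of complex I per length, had 508 ± 36.8 RPKM in the controls and 410.4 ± 35.9 RPKM in the Axin1 libraries (SD, n = 3 each). RPKM are reads scaled to both the library's size and the gene's counted length, here as the authors deposited them, and they are used to compare levels between genes. The log2 fold change of Ndufb8 was -0.32 (SE 0.11, edgeR adjusted p 0.187), with groups that did not overlap. Among the other accessory subunits whose groups did not overlap downward, Ndufa3, Ndufb3, Ndufb7, Ndufa1, Ndufa7, Ndufa9 and Ndufb11 had log2 fold changes between -0.46 (Ndufb3) and -0.32 (Ndufb11). Ndufa13, Ndufs4, Ndufa6, Ndufb9, Ndufv3, Ndufc2 and Ndufa12 lay between -0.30 (Ndufa13) and -0.22 (Ndufa12). The groups of Ndufa11, Ndufb5, Ndufb4, Ndufa5, Ndufa8 and Ndufc1 overlapped, with log2 fold changes from -0.35 (Ndufa11) to -0.09 (Ndufc1). Ndufb6 overlapped as well and was slightly positive at 0.12.

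Ndufab1, the mitochondrial acyl carrier protein that is also a complex I subunit and takes part in lipoic acid and iron-sulfur cluster synthesis, went the other way and had the largest log2 fold change of all kept genes. It was counted at 1.66, 1.61 and 2.66 CPM in the controls and 5.67, 12.4 and 6.91 CPM in the Axin1 libraries. Every Axin1 library was above every control, though with low counts in all 6 libraries. The log2 fold change was 2.07 (SE 0.4, edgeR adjusted p 0.058), and DESeq2 called it at an adjusted p of 0.000736. Its level was lowest in controls 1 and 2, and against control 3 alone the log2 fold change was 1.64 (edgeR adjusted p 0.558). The assembly factors matched by symbol, which help build complex I and leave it afterwards, had no common direction. Ndufaf3 was counted at 31.5, 29.3 and 31.7 CPM in the controls and 21.3, 25.5 and 19.2 CPM in the Axin1 libraries, with groups that did not overlap and a log2 fold change of -0.49 (SE 0.16, edgeR adjusted p 0.181). Its partner Ndufaf4 had a log2 fold change of 0.07, Ndufaf1 of -0.32 and Ndufaf2 of 0.03, all with overlapping groups.

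All 4 subunits of complex II had a log2 fold change below 0, with a median of -0.30. Complex II has no subunit from mitochondrial DNA, so these 4 genes are the whole enzyme. Sdha, the flavoprotein that oxidises succinate, was counted at 619, 558 and 624 CPM in the controls and 560.2, 512 and 539.7 CPM in the Axin1 libraries. Axin1 library 1 lay just above control 2, so the groups overlapped, and the log2 fold change was -0.16 (SE 0.097, edgeR adjusted p 0.444). Sdhb, the iron-sulfur subunit, was counted at 396, 342 and 362 CPM in the controls and 314, 323 and 271 CPM in the Axin1 libraries, with a log2 fold change of -0.27 (SE 0.11, edgeR adjusted p 0.259). Sdhc, a membrane anchor, was counted at 289.9, 271 and 249 CPM in the controls and 221, 209 and 211 CPM in the Axin1 libraries, with a log2 fold change of -0.34 (SE 0.1, edgeR adjusted p 0.154). The groups of Sdhb and Sdhc did not overlap. Sdhd, the other membrane anchor, was counted at 335, 314 and 293 CPM in the controls and 233, 244 and 238 CPM in the Axin1 libraries. The Axin1 libraries lay close together and below all controls, and the log2 fold change was -0.40 (SE 0.098, edgeR adjusted p 0.105), with a DESeq2 adjusted p of 0.0249. Per length the 4 subunits were at similar levels, from 197 RPKM (Sdha) to 309 RPKM (Sdhb) as means of all libraries.

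All 8 kept subunits of complex III had a log2 fold change below 0 (Uqcrfs1 by less than the second decimal), with a median of -0.24, and the groups of 5 did not overlap (against 12.5% of all genes). Uqcrq, a small subunit next to cytochrome b, was counted at 285, 257 and 243 CPM in the controls and 187, 196 and 149 CPM in the Axin1 libraries. No Axin1 library reached the lowest control, and Uqcrq had a log2 fold change of -0.56 (SE 0.13, edgeR adjusted p 0.092) and a DESeq2 adjusted p of 0.0107. Uqcr10, another small membrane subunit, was counted at 237, 208 and 209 CPM in the controls and 149, 175 and 139 CPM in the Axin1 libraries and had a log2 fold change of -0.50 (SE 0.12, edgeR adjusted p 0.105). Uqcrh, the acidic hinge protein that contacts cytochrome c1, was counted at 298, 274 and 257 CPM in the controls and 203, 236 and 239 CPM in the Axin1 libraries. Its groups did not overlap, with a log2 fold change of -0.29 (SE 0.11, edgeR adjusted p 0.236). Uqcr11 and the core protein Uqcrc2 were also lower in all Axin1 libraries, with log2 fold changes of -0.38 and -0.19. The other core protein, Uqcrc1, was counted at 762, 661 and 848 CPM in the controls and 757, 783 and 599 CPM in the Axin1 libraries. Its groups overlapped, with control 3 the highest and Axin1 library 3 the lowest, and its log2 fold change was -0.09 (SE 0.14, edgeR adjusted p 0.803). Uqcrb, which had the highest level of complex III per length, had 745 ± 77.4 RPKM in the controls and 744 ± 67.9 RPKM in the Axin1 libraries (SD, n = 3 each). That rank rests on a counted length of 217 bases, of a transcript of 535. Uqcrfs1, the Rieske iron-sulfur protein that accepts electrons from ubiquinol, was counted at 24.1, 23.5 and 21.9 CPM in the controls and 21, 23 and 25.4 CPM in the Axin1 libraries. Its groups overlapped and were nearly equal in mean, and at 17.5 RPKM over all libraries it was the lowest of the complex.

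Over all 6 libraries, 8 of the 13 kept subunits of complex IV were below 0 and 5 above, with a median of -0.22. Cox4i1, the ubiquitous isoform of a regulatory subunit of the oxidase, had the highest level per length of all kept genes, 1372 ± 41.3 RPKM in the controls and 1076 ± 83.6 RPKM in the Axin1 libraries (SD, n = 3 each). Its counts were 989, 947 and 899 CPM in the controls and 718, 785 and 696 CPM in the Axin1 libraries. Its groups did not overlap, and it had a log2 fold change of -0.37 (SE 0.097, edgeR adjusted p 0.115) and a DESeq2 adjusted p of 0.0371. Cox7a2, the common isoform of a small membrane subunit, was counted at 245, 229.9 and 218 CPM in the controls and 167, 181 and 165 CPM in the Axin1 libraries, with a log2 fold change of -0.43 (SE 0.1, edgeR adjusted p 0.092). Cox6b1, which faces the intermembrane space, was counted at 367, 326 and 364 CPM in the controls and 256, 284 and 236 CPM in the Axin1 libraries, with a log2 fold change of -0.45 (SE 0.11, edgeR adjusted p 0.105). The groups of Cox7a2 and Cox6b1 did not overlap, and neither did those of Cox7b (-0.33). Cox6c (-0.22) and Cox7c (-0.10) had overlapping groups. Ndufa4, first assigned to complex I and now counted with complex IV, was counted at 329.9, 328 and 280.4 CPM in the controls and 237, 281 and 241 CPM in the Axin1 libraries. Axin1 library 2 lay just above control 3, and the log2 fold change was -0.30 (SE 0.12, edgeR adjusted p 0.233). Cox5a, a matrix-side subunit, was counted at 14.5, 14.6 and 18.1 CPM in the controls and 19.4, 35.1 and 23.3 CPM in the Axin1 libraries. It was the only complex IV gene with every Axin1 library above every control, and its log2 fold change of 0.72 (SE 0.24, edgeR adjusted p 0.184) did not pass. Cox5b, Cox8a and Cox6a1 were lowest in controls 1 and 2 and had positive log2 fold changes (0.91, 0.38 and 0.12) with overlapping groups. Against control 3 alone their log2 fold changes were -0.20, -0.22 and -0.33, and 11 of the 13 complex IV genes were below 0.

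The isoforms of complex IV that are known from particular tissues were low or near 0, except that Cox6b2 was at the level of Cox5a. Cox4i2, the isoform known from lung and from low oxygen, was counted at 1.92, 2.53 and 3.12 CPM in the controls and 1.92, 2.48 and 1.12 CPM in the Axin1 libraries, with overlapping groups. Per length it was at 2.96 RPKM over all libraries, where its ubiquitous counterpart Cox4i1 was at 1224 RPKM. Cox6b2, known from testis, was counted at 14, 8.96 and 17.4 CPM in the controls and 15.1, 24.4 and 10.4 CPM in the Axin1 libraries, also with overlapping groups. Per length, over all libraries, Cox6b2 was at 34.5 RPKM, the common isoform Cox5a at 30.4 RPKM and its counterpart Cox6b1 at 607 RPKM. Among the striated muscle isoforms, Cox7a1 was counted at 0.525, 0.536 and 0.643 CPM in the controls and 0.399, 1.38 and 0.518 CPM in the Axin1 libraries, and Cox6a2 had reads in controls 1 and 2 alone, at 0.175 and 0.153 CPM. Cox8b and the testis isoform Cox8c had 0 reads in every library, and Cox7b2 reached at most 0.306 CPM. Ndufa4l2, the paralog of Ndufa4 that is known as a target of hypoxia-inducible factor, was counted at 0.525, 1.15 and 3.21 CPM in the controls and 0.798, 1.93 and 1.81 CPM in the Axin1 libraries. Its groups overlapped, and it had between 6 and 35 reads in a library. Cox7a2l, a factor that joins complexes III and IV into supercomplexes, was counted at 149, 157 and 138 CPM in the controls and 117, 105 and 112 CPM in the Axin1 libraries. Here too the groups did not overlap, with a log2 fold change of -0.41 (SE 0.11, edgeR adjusted p 0.113) and a DESeq2 adjusted p of 0.0336.

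In complex V, 12 of the 14 subunits were below 0. The 9 kept genes of the membrane-embedded Fo part and the stalks were all below 0, with a median of -0.39, and the 5 genes of the catalytic F1 head had a median of -0.12. The Fo and stalk genes summed to 2198, 2043 and 1968 CPM in the controls and 1664, 1795 and 1619 CPM in the Axin1 libraries. Every Axin1 library was below every control, and the ratio of means was 0.818. The F1 genes summed to 2879, 2707 and 3371 CPM in the controls and 3422, 3203 and 3107 CPM in the Axin1 libraries, with overlapping groups and a ratio of 1.09. The F1 sum contains Atp5b and Atp5d, which were low in controls 1 and 2, and without them it was 2445, 2292 and 2229 CPM in the controls and 2195, 2127 and 2004 CPM in the Axin1 libraries. These groups did not overlap, and the ratio of means was 0.908. Over control 3 alone, the mean of the Axin1 libraries was 0.962 for all 5 F1 genes and 0.860 for the Fo and stalk genes. No test of the difference between F1 and Fo was made. Atp5h, subunit d of the peripheral stalk, was counted at 212, 198 and 194 CPM in the controls and 133, 157 and 137 CPM in the Axin1 libraries. It had the smallest p of the complex, with a log2 fold change of -0.50 (SE 0.11, edgeR adjusted p 0.0798). Atp5j2, subunit f in the membrane, was counted at 228, 216 and 229 CPM in the controls and 152, 177 and 151 CPM in the Axin1 libraries, with a log2 fold change of -0.49 (SE 0.11, edgeR adjusted p 0.0798). Atp5j, coupling factor F6 of the stalk, was counted at 269.9, 282 and 244 CPM in the controls and 189, 211 and 206 CPM in the Axin1 libraries. The groups of these 3 genes did not overlap, and the log2 fold change of Atp5j was -0.39 (SE 0.11, edgeR adjusted p 0.119). Atp5k, a subunit of the dimer interface, and Atp5o, which ties the stalk to F1, also had groups that did not overlap, with log2 fold changes of -0.41 and -0.28. Atp5f1, the long stalk subunit b, overlapped at -0.09. Atp5l, subunit g, had low counts of 2.54, 2.38 and 4.13 CPM in the controls and 2.39, 2.27 and 1.64 CPM in the Axin1 libraries, and its groups overlapped too. Its log2 fold change of -0.51 had a wide 95% confidence interval from -1.45 to 0.42.

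The ring of c subunits that turns as protons pass is encoded by Atp5g1, Atp5g2 and Atp5g3, which give the same mature peptide. Atp5g3 was counted at 412, 338 and 349 CPM in the controls and 299, 319 and 315 CPM in the Axin1 libraries. Its groups did not overlap, with a log2 fold change of -0.24 (SE 0.11, edgeR adjusted p 0.312). Atp5g1 was counted at 42.8, 34.4 and 39.8 CPM in the controls and 37.8, 40.1 and 31 CPM in the Axin1 libraries, with overlapping groups. The reads of Atp5g1 were counted over 119 bases of a transcript of 596. Per length, as means of all libraries, Atp5g1 was at 312 RPKM and Atp5g3 at 494 RPKM. Atp5g2 was at most 0.262 CPM and was not kept. In the F1 head, the alpha subunit gene Atp5a1 was counted at 1489, 1358 and 1381 CPM in the controls and 1401, 1278 and 1207 CPM in the Axin1 libraries, the highest CPM level of the kept genes. The groups overlapped, with a log2 fold change of -0.12 (SE 0.098, edgeR adjusted p 0.575). Atp5c1, the rotating gamma shaft, had the highest level of complex V per length at 647 RPKM over all libraries. It was counted at 785, 756 and 661 CPM in the controls and 647, 675 and 651 CPM in the Axin1 libraries, with Axin1 library 2 above control 3 and a log2 fold change of -0.16 (SE 0.1, edgeR adjusted p 0.473). Atp5e, the small epsilon subunit, had a log2 fold change of -0.19 and overlapping groups. The 3 remaining genes caught by symbol have other roles. Atp5s, related to ATP synthase coupling factor B, was counted at 6.47, 7.51 and 7.71 CPM in the controls and 11.2, 10.4 and 10.3 CPM in the Axin1 libraries. Every Axin1 library was above every control, with a log2 fold change of 0.55 (SE 0.21, edgeR adjusted p 0.233). Cox4nb, a neighbour of Cox4i1 in the genome, had a log2 fold change of 0.66 with overlapping groups, and Atp5sl of -0.22 with groups that did not overlap.

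Of the 83 genes, 6 were at least 1.5-fold lower in controls 1 and 2 than in every other library (7.23%, against 3.54% of all tested genes). They were Atp5b, Atp5d, Cox5b, Ndufa10, Ndufb2 and Ndufab1, and apart from those in the naming rule they were chosen after their values were seen. Atp5b, the catalytic beta subunit, was counted at 396, 379 and 958 CPM in the controls and 1058, 890.5 and 941 CPM in the Axin1 libraries. Atp5d, the delta subunit of the rotating stalk, was counted at 38.6, 36.5 and 184 CPM in the controls and 168, 186 and 163 CPM in the Axin1 libraries. Control 3 lay with the Axin1 libraries for both genes. Cox5b, the zinc-binding subunit of complex IV, was counted at 13.6, 12 and 63.6 CPM in the controls and 51.1, 64.6 and 51.1 CPM in the Axin1 libraries. The accessory complex I subunits Ndufa10 and Ndufb2 were counted at 36.9, 35.7 and 136 CPM in the controls and 131, 139 and 129.8 CPM in the Axin1 libraries for Ndufa10, and 9.18, 8.05 and 41.1 CPM in the controls and 31.7, 38.9 and 34.2 CPM in the Axin1 libraries for Ndufb2. In these 5 genes control 3 lay among or near the Axin1 libraries, and the groups overlapped. With control 3 left out, edgeR called 13 of the 83 genes at an adjusted p of 0.05. Of these, Atp5b, Atp5d, Cox5b, Ndufa10, Ndufab1, Ndufb2, Cox8a and Cox4nb were higher (against 3.97% of all genes), with a log2 fold change of 2.19 for Atp5d and 2.11 for Cox5b. Atp5h, Cox7a2, Ndufb10, Sdhd and Uqcrq were lower (against 1.41%). With controls 1 and 2 left out, which leaves control 3 alone against 3 Axin1 libraries and assumes that it varies like them, 0 genes were called, and the log2 fold change was -0.09 for Atp5d, -0.20 for Cox5b, 0.00 for Atp5b, -0.03 for Ndufa10 and -0.24 for Ndufb2. In that comparison 10 of the 83 genes were lower (against 4.15% of all genes) and 1 higher (against 4.46%) at an unadjusted p under 0.05. Their median was -0.23, and 67 were below 0. All 83 genes summed to 17394, 16057 and 17247 CPM in the controls and 15157.5, 15828 and 14158 CPM in the Axin1 libraries. Their ratio of means was 0.890, with no overlap. The 77 genes without these 6 summed to 16898, 15585 and 15862 CPM in the controls and 13712, 14497 and 12832 CPM in the Axin1 libraries. That ratio of means was 0.849 with no overlap. The 6 were defined by low values in controls 1 and 2, so leaving them out lowers the ratio by construction.

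**Figure D3:**
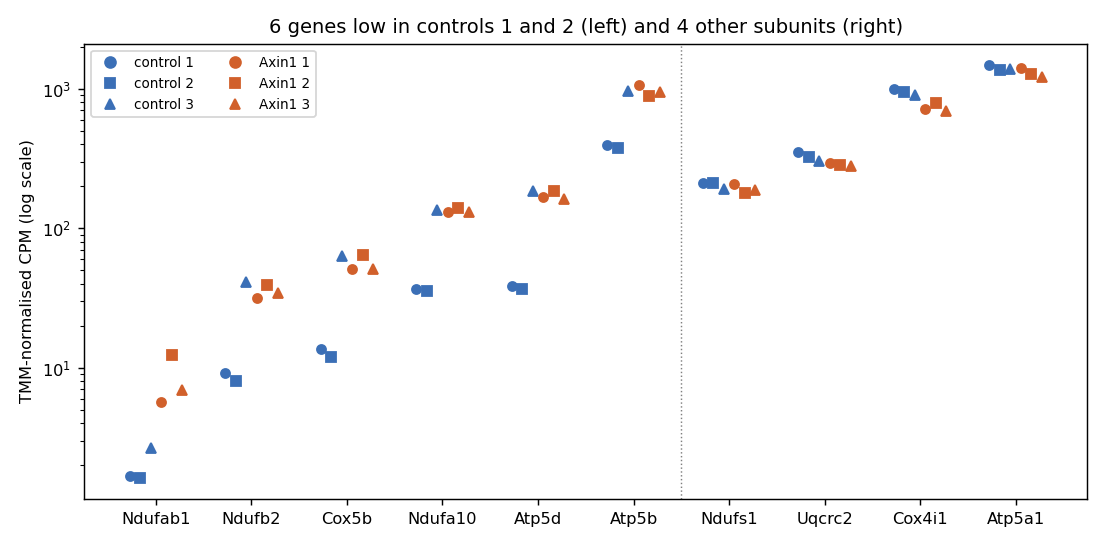
TMM-normalised CPM (log scale, y axis) of the 6 genes that were low in controls 1 and 2, left of the dotted line, and of 4 other subunits, with a point for each library. In the 6 genes the points of controls 1 and 2 lie below the other 4, and in Ndufs1, Uqcrc2, Cox4i1 and Atp5a1 they do not.

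The transcripts of oxidative phosphorylation genes are short, with a median of 809 bases, and short transcripts of other genes were also lower in the Axin1 libraries. Length was taken as the shortest matched transcript in the GENCODE M21 annotation. Over 12491 tested genes with a length, Spearman's rho between length and log2 fold change was 0.17, and over the 83 genes it was 0.26. Both are descriptions across genes of the same 6 libraries. Among transcripts of 500 to 749 bases, the 31 oxidative phosphorylation genes had a median log2 fold change of -0.29 and the 288 other genes -0.16. From 1000 to 1499 bases the medians were -0.30 for 13 oxidative phosphorylation genes and -0.08 for 1283 others. From 1500 to 2499 bases they were -0.11 for 12 genes and -0.02 for 3055 others. Groups that did not overlap downward were also more frequent in short transcripts: the counts were 5 of 8 oxidative phosphorylation genes under 500 bases (against 35.2% of other genes), 7 of 13 from 750 to 999 (against 28.3%) and 7 of 13 from 1000 to 1499 (against 20.03%). At an unadjusted p under 0.05 the lower genes were 4 of 8 under 500 bases (against 30.7%), 14 of 31 from 500 to 749 (against 19.4%), 7 of 13 from 750 to 999 (against 18.8%) and 7 of 13 from 1000 to 1499 (against 13.8%). With a length offset in the fit, chosen after seeing the data, the median of the 83 genes was -0.12 and 57 were below 0. At an unadjusted p under 0.05, 21 were then lower (against 8.14% of all genes) and 5 higher (against 8.10%), and 0 passed the adjusted threshold, against 0.458% of all genes lower and 0.348% higher. With the offset the median of complex IV was 0.00, and that of complex II was -0.25. Ndufs6 had a log2 fold change of -0.36 and Sdhd of -0.30 in that fit. What sets the trend with length in these libraries was not tested.

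**Figure D4:**
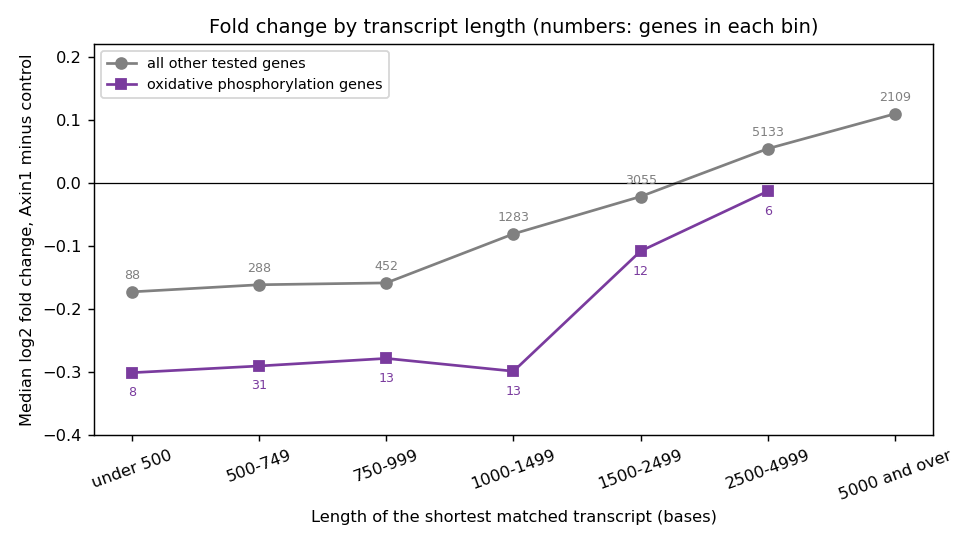
Median log2 fold change (Axin1 minus control, y axis) in bins of transcript length (x axis, bases), for the oxidative phosphorylation genes and for all other tested genes, with the number of genes beside each point. The line of the other genes rises with length from -0.17 under 500 bases. The oxidative phosphorylation genes stay between -0.28 and -0.30 up to 1499 bases, are at -0.11 and -0.01 in the longer bins, and lie below the others in every bin that holds them.

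Some of these genes were counted over only a small stretch of their transcript. The ratio of reads to deposited RPKM gives the number of bases by which the authors divided. For 54 of the 83 genes it was at least 80% of the shortest matched transcript, and for 29 it was less. Atp5g2 was divided by 19 bases, of a transcript of 731, and Ndufs5 by 50 of 525. These are the entries for a c subunit and for a complex I subunit that had too few reads to be kept, so their low counts say little about the level of the transcript. Atp5l was divided by 101 of 544 bases, Ndufb4 by 128 of 971 and Ndufab1 by 527 of 3479. Ndufa11 was divided by more than its shortest transcript, 2627 against 545 bases. Many genes of this family have processed pseudogenes, and how reads with several matches were treated is not given in the sources used here, so levels of such genes are uncertain. The median log2 fold change was -0.23 for the 54 genes and -0.30 for the 29.

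**Figure D5:**
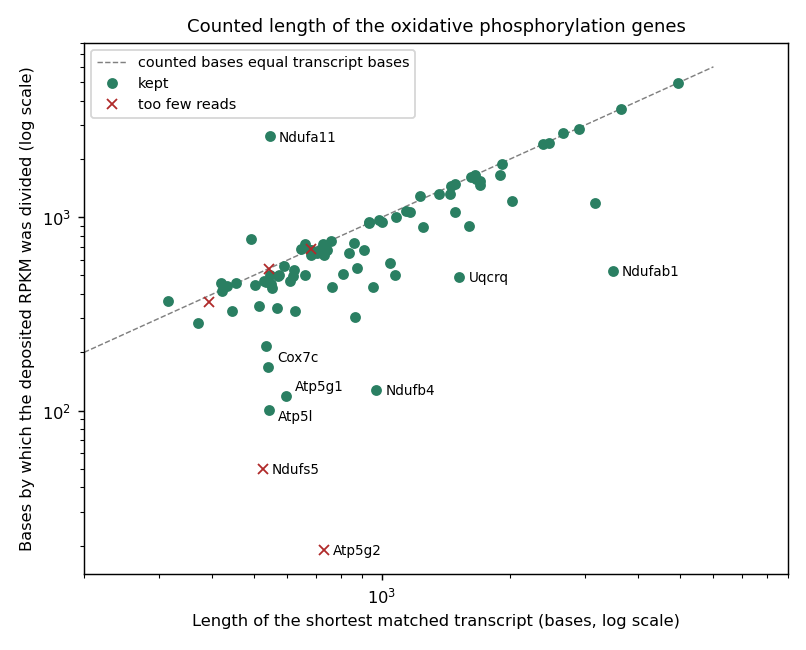
Bases by which the deposited RPKM was divided (y axis, log scale) against the length of the shortest matched transcript (x axis, log scale), with a point for each gene that had reads. Most genes lie near the dashed line of equality, and Atp5g2, Ndufs5, Atp5l, Atp5g1, Ndufb4 and Ndufab1 lie well below it.

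Among the other genes of the pathway listed here, the edgeR test called none at an adjusted p of 0.05. Of 76 genes for proteins of the mitochondrial ribosome, which makes the subunits encoded in mitochondrial DNA, 59 were below 0 with a median of -0.17, and 8 were lower and 6 higher at an unadjusted p under 0.05. Over all tested genes 47.5% were below 0, and 8.14% were lower and 9.06% higher at that p, so the share of ribosomal protein genes under 0.05 was near that of all genes. Every Axin1 library was below every control for 23 of the 76 (against 12.5% of all genes) and above every control for 7 (against 11.3%). These transcripts are short too, with a median of 1224.5 bases. Among genes of 1000 to 1499 bases outside oxidative phosphorylation, 20.03% had every Axin1 library below every control. With the length offset the median of the 76 was -0.089. The smallest p belonged to Mrps15, counted at 5.86, 4.67 and 14.9 CPM in the controls and 27, 39.3 and 35.3 CPM in the Axin1 libraries, which was also low in controls 1 and 2. Of 27 assembly factors outside the symbol rule, 20 were below 0 with a median of -0.13, and 2 were lower and 1 higher at an unadjusted p under 0.05, against the same shares of all genes. Higd2a, an assembly factor of complex IV, was counted at 75.2, 72 and 72.4 CPM in the controls and 49.9, 59.3 and 58.7 CPM in the Axin1 libraries. Its groups did not overlap, with a log2 fold change of -0.39 (SE 0.12, edgeR adjusted p 0.16). Of 12 genes for mitochondrial DNA maintenance and transcription, 9 were below 0 with a median of -0.12, none was under 0.05 in unadjusted p, and Mterfd2 had the smallest p (log2 fold change -0.49, adjusted p 0.306 by edgeR). Of 5 genes for cytochrome c, cytochrome c1 and subunits outside the symbol rule, 3 were below 0, and the entry 2010107E04Rik alone had an unadjusted p under 0.05 (log2 fold change -0.35, adjusted p 0.203 by edgeR). The nuclear regulators had no common direction, with 6 of 15 below 0, a median of 0.04, and 1 lower and 2 higher at an unadjusted p under 0.05, again against those shares of all genes. Among them Ppargc1a, the coactivator known for driving mitochondrial biogenesis, had the smallest p and was counted at 0.874, 0.996 and 1.65 CPM in the controls and 0.0798, 0.344 and 0.0863 CPM in the Axin1 libraries. Every Axin1 library was below every control at a very low level, with a log2 fold change of -2.66 (SE 0.75, edgeR adjusted p 0.134). DESeq2 called 1 gene higher among the mitochondrial ribosomal proteins and 1 among the assembly factors (against 3.17% of all genes). No entry was found under the mt- symbols of subunits encoded in mitochondrial DNA, so these subunits were not analysed here.

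The 12 macrophage markers all had log2 fold changes above 0 that did not pass the test, and summed to 507, 882 and 464 CPM in the controls and 258, 1284 and 2715 CPM in the Axin1 libraries. Their groups overlapped, with Axin1 library 3 the highest and Axin1 library 1 the lowest, and none of the 12 was at 0 in all libraries. Axin1 library 3 was also the lowest library for 43 of the 83 oxidative phosphorylation genes. The 6 platelet markers summed to 1355 to 1446 CPM in the controls and 643 to 2186 CPM in the Axin1 libraries, and the 12 erythroid entries to 733 to 3053 CPM and 257 to 2679 CPM, with 2 entries at 0 in all libraries. The 11 neural entries summed to 289 to 475 CPM in the controls and 343 to 368 CPM in the Axin1 libraries, and the 12 pericyte and mesenchyme markers to 63.2 to 159 CPM and 128 to 174 CPM. Among the endothelial markers, Cdh5 was counted at 432, 501 and 845 CPM in the controls and 979.8, 944 and 922 CPM in the Axin1 libraries and was low in controls 1 and 2 like the 6 genes above. So was Eng, at 182, 132 and 324 CPM in the controls and 317, 324 and 310 CPM in the Axin1 libraries. Esam, Egfl7, Emcn, Flt1, Fli1 and Erg did not have that pattern. The part of other cell types in the levels of the oxidative phosphorylation genes was not tested.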

How the data were processed

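Each of the 6 libraries came as a gene table of read counts and RPKM values that the authors deposited, as named in the file headers. The aligner Bowtie and build mm9 are credited to the submitters' processing notes. Which counting program and strand setting were used, and how reads with several matches were handled, is not given in the sources used here. Deposited counts were filtered with filterByExpr and tested in edgeR 4.0.16 (R 4.3.3) by the quasi-likelihood test, robust, TMM-normalised and without covariates, with Benjamini-Hochberg adjustment over all 12661 genes at 0.05. TMM factors were 0.975 to 1.02. A standard error is the log2 fold change divided by the square root of F. The fit was tested on simulated counts. The deposited RPKM values served for levels between genes and for counted lengths, and as alternatives in limma 3.58.1 on log2(RPKM + 1) and log2(RPKM + 0.1), a scale that understates changes of low genes. Other alternatives were DESeq2 1.42.0, its size factors, other filters, replicate blocks and each library left out. A length offset and leaving out controls 1 and 2 were chosen after seeing the data. Transcript lengths and promoter windows are from GRCm38, matched by RefSeq identifier or symbol, and no mm9 coordinates are given.

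The members, the lists and the tests were chosen with earlier results of these data known. Named by rule were any gene past the threshold, and in each complex the largest positive and negative fold change, the highest RPKM and the smallest p. The rule also held Cox4i2, Cox7a1, Cox6a2, Cox8b, Ndufa4, Ndufa4l2, Cox7a2l, Atp5g1 to Atp5g3, Sdha to Sdhd, the smallest p of each other list, and Axin1. All other genes were named after their values were seen. The values of 1 complex I gene are not reported here, though it counts in the totals.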

Additional observations from a re-analysis of the deposited data

How the results depend on the processing

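The number of genes called depended on the test and on single libraries. Over all genes, 107 were called by edgeR, 720 by DESeq2, 197 with no filter on low counts, 1500 with a replicate block in the 4 libraries that share a title number, 0 to 695 with 1 library left out, and 0 without controls 1 and 2. Of the oxidative phosphorylation genes, 0 were called by edgeR, 17 by DESeq2, 1 with no filter (Ndufab1), 29 with the title-number block (18 lower and 11 higher) and 0 to 13 with 1 library left out, the 13 without control 3. Genes with every Axin1 library above every control numbered 3, against 11.3% of all genes. They numbered 13 in the 4 libraries of the title-number block and up to 12 with 1 library left out (without control 3). Groups of fewer libraries separate more often by their size alone, so these counts cannot be compared with the 3. The shares of all genes in those smaller sets are not given here. The length offset moved the median log2 fold change to -0.12 for all kept genes, -0.12 for complex I, -0.115 for complex III, 0.000765 for complex IV and -0.0918 for complex V. Without Atp5b and Atp5d the ratio of summed complex V levels was 0.866, against 0.977. Of the alternative fits of 23 genes named by rule, 341 gave the same call and 27 passed the threshold where edgeR had not. The sign changed in at least 1 alternative for Atp5d, Atp5g1, Cox5b, Ndufa4l2, Uqcrb and Uqcrfs1, none of them called by edgeR.

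The labels do not say what the title numbers mark. Only numbers 1 and 2 share one across groups (1813 and 1814), fewer pairs than the 3 that the check of pairing needs: deviations from the group means correlated at 0.234 and 0.152 for these, and at -0.023 for number 3. Control 2 correlated best with Axin1 library 3 (0.175). With the description numbers as a replicate block in all 6 libraries, 105 genes and 0 oxidative phosphorylation genes were called. Ndufa4l2, Atp5l, Cox4i2 and Ndufab1 rest on few reads, down to 6, 19, 13 and 19 in a library.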
